A study of Mus musculus with 20 samples.

Results

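Hippocampus libraries labelled NCoR1-KO were set directly against those labelled SMRT-KO, from crosses meant to remove one corepressor or the other from neurons. Ncor1 was low in each NCoR1-KO library. No value reported here checks the SMRT-KO label, so the contrast is one between labelled groups, and a loss of SMRT from the SMRT-KO hippocampus is not shown. The comparison used 3 NCoR1-KO and 3 SMRT-KO libraries, 6 of the 20 libraries of the series, chosen by their labels for tissue and genotype. Bulk RNA was sequenced at postnatal day 21. In both knockouts the Cre driver was Snap25-IRES2-cre, which is active throughout neurons, combined with floxed Ncor1 alleles in NCoR1-KO and with floxed alleles of the gene for SMRT in SMRT-KO. The 4 hippocampus control libraries entered the estimate of the spread and are given as values only; the labels do not say whether the controls carried Cre or floxed alleles. The amygdala had the same 3 groups, with 3, 3 and 4 libraries. The labels do not say whether the libraries came from separate animals, or whether both tissues came from the same animals, so the p-values cover the scatter among these libraries, part of which may be technical. Glia, vessels and other cells without the driver keep both genes, and their RNA is in every library. In bulk tissue, fewer cells of a type and less RNA per cell cannot be told apart.

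NCoR1 and SMRT are paralogous corepressors. They bind nuclear receptors such as the thyroid hormone, retinoic acid and REV-ERB receptors, mostly in the absence of an activating ligand, and hold a complex with the histone deacetylase HDAC3, TBL1X, TBL1XR1 and GPS2 at the genes that those receptors repress. Loss of a corepressor can raise the level of such targets, and each corepressor is preferred by some receptors over the other.

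Levels are in TPM, a unit scaled for transcript length and library total, so that genes can be compared with each other; sequencing depth is not kept in it and is unknown. Differences are NCoR1-KO minus SMRT-KO on the log2(TPM + 1) scale, with the standard error of the model, so that a positive value means a higher level in NCoR1-KO. The 14501 of 23412 gene symbols that reached 1 TPM in at least 3 of the 10 hippocampus libraries were tested with limma. Gene positions are from RefSeq on GRCm38.p6, the assembly that the mm10 build names.

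No gene passed an adjusted p of 0.05 in the hippocampus, 0 of 14501 or 0.0%. The smallest adjusted p was 0.4203. At an unadjusted p under 0.05 there were 554 genes higher in NCoR1-KO, 3.82% of those tested, and 402 lower, 2.77%. All 3 NCoR1-KO libraries lay above all 3 SMRT-KO libraries for 934 genes, 6.44%, and below them for 726 genes, 5.01%. The same contrast in the amygdala called 1679 of 14606 genes, 11.5%, of which 735 were higher and 944 lower in NCoR1-KO. The hippocampus differences are therefore given as values that did not pass. Weighting each library by its own scatter called 47 of the 14501 hippocampus genes tested, 30 higher and 17 lower in NCoR1-KO. A fit of the 6 knockout libraries alone called 5, and leaving out control 2 called 1. In the other 17 of 20 alternatives the count was 0.

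Ncor1, at chr11:62315663-62457414, checks the labels. It was measured at 41.9, 44.5 and 61.1 TPM in NCoR1-KO hippocampus, against 143, 108 and 101 TPM in SMRT-KO hippocampus and 81.6, 119, 129 and 137 TPM in controls. The 3 NCoR1-KO libraries lay below every other hippocampus library, and the SMRT-KO libraries lay within the range of the controls or just above it. The mean was 49.2 ± 10.4 TPM in NCoR1-KO, against 117 ± 22.6 TPM in SMRT-KO (SD, n = 3 each), so that NCoR1-KO held 41.9% of the SMRT-KO level. The difference of -1.24 ± 0.21 had an adjusted p of 0.607 with limma, and weighting the libraries gave -1.56 with an adjusted p of 0.0127. A two-sided exact permutation test of Ncor1 gave p = 0.1, the smallest that 3 against 3 libraries allow in 20 arrangements. In the amygdala Ncor1 was 32.1, 34.6 and 39 TPM in NCoR1-KO, against 124, 114 and 118 TPM in SMRT-KO, and there the difference of -1.73 ± 0.18 passed with an adjusted p of 0.001299.

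Snap25, the synaptic vesicle fusion gene whose locus carries the Cre, lies at chr2:136713439-136782428. It was measured at 1273, 1346 and 1257 TPM in NCoR1-KO, against 1247, 1090.1 and 1699 TPM in SMRT-KO and 2236, 2204, 2329 and 2249 TPM in controls. Both knockouts lay below every control, and the knockouts overlapped each other, with SMRT-KO 3 the highest of the 6 and SMRT-KO 2 the lowest. The knockouts differed by -0.034 ± 0.13 (adjusted p = 0.978 with limma), and the exact permutation test of Snap25 between them gave p = 1.

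**Figure D1:**
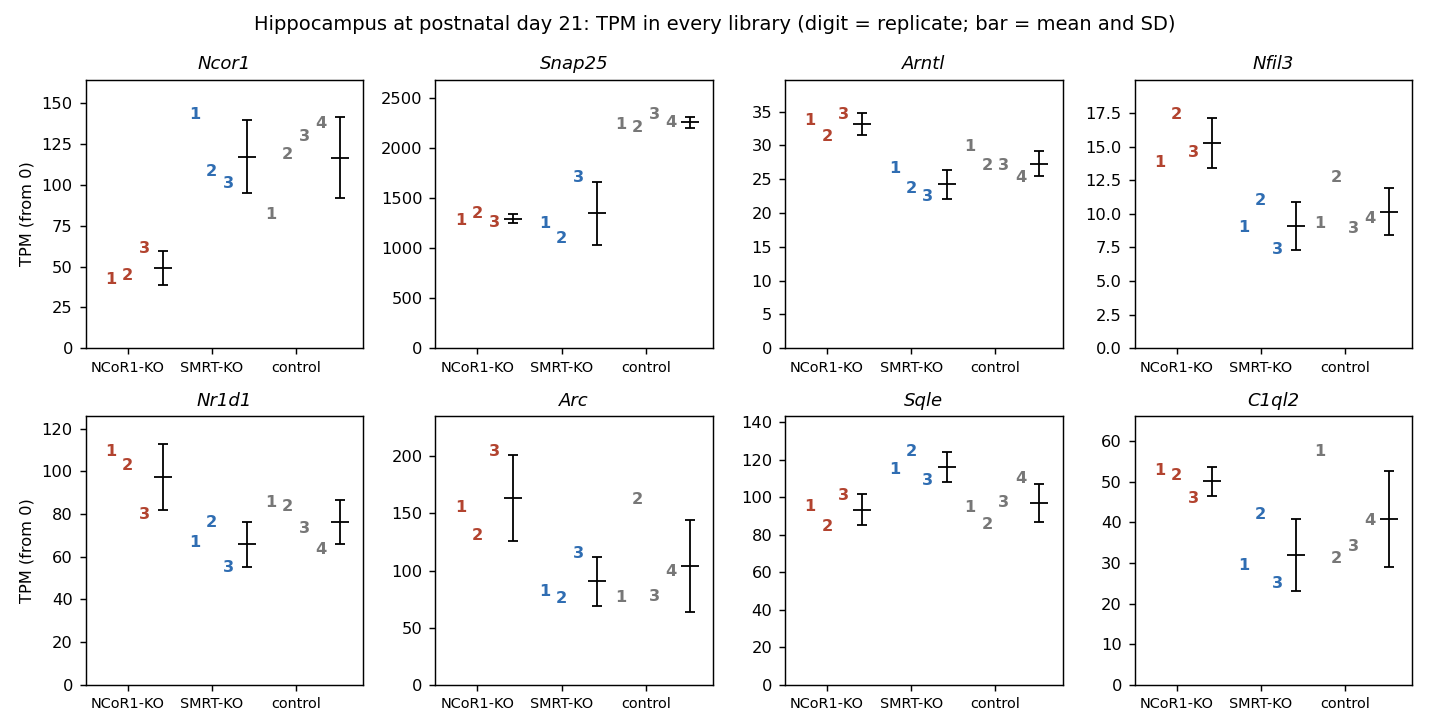
TPM of 8 genes in every hippocampus library, on linear axes from 0, with NCoR1-KO left, SMRT-KO in the middle and controls right; each digit is a replicate, and the bar beside it is the mean with the SD. Ncor1 is low in the 3 NCoR1-KO libraries, and Arntl, Nfil3, Nr1d1, Arc and C1ql2 lie higher in each NCoR1-KO library than in each SMRT-KO library, while Sqle lies lower.

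The hippocampus label was checked against its markers. C1ql2, a gene of dentate granule neurons, had 52.8, 51.5 and 45.97 TPM in NCoR1-KO, against 29.3, 41.95 and 24.9 TPM in SMRT-KO hippocampus. It had 2.11, 5.48 and 1.8 TPM in NCoR1-KO, against 5.03, 4.55 and 2.25 TPM in SMRT-KO amygdala, far below the hippocampus. Fibcd1, a gene of CA1 neurons, had 78.04, 92.5 and 70.9 TPM in NCoR1-KO, against 95.4, 47.4 and 118 TPM in SMRT-KO hippocampus. Some libraries stood apart in markers of neighbouring structures. The 12 thalamus markers summed to 111 to 142 TPM in the NCoR1-KO libraries, against 174, 945 and 96.4 TPM in SMRT-KO. The 14 choroid plexus markers summed to 2656, 261 and 14252 TPM in NCoR1-KO, against 337, 7298 and 253 TPM in SMRT-KO. The 16 oligodendrocyte markers summed to 13951 to 17635 TPM in NCoR1-KO, against 21636, 30347 and 10459 TPM in SMRT-KO. SMRT-KO 2 was thus high in all 3 sets and NCoR1-KO 3 in that of the choroid plexus. The 10 dentate markers summed to 581.9 to 599.6 TPM in NCoR1-KO, against 516.6, 494.8 and 329.8 TPM in SMRT-KO, lowest in SMRT-KO 3. Between 13787 and 14391 genes reached 1 TPM per knockout library, and the correlation of log2 values between knockout libraries was 0.970 to 0.992.

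Circadian clock genes form a transcriptional loop in which BMAL1, the product of Arntl, and CLOCK activate the Per and Cry repressors and the gene Nr1d1. Its product REV-ERBα recruits NCoR1 and HDAC3 to repress Arntl and Nfil3. Of the 18 clock genes tested, 15 had a higher level in NCoR1-KO and 3 a lower one, and 9 were higher in NCoR1-KO with no overlap between the libraries, 50% of the list beside 6.44% of all genes. The median difference over the list was 0.21, beside 0.017 over all tested genes. In the amygdala 10 of the 18 were higher, with a median of 0.056. There 4 passed as higher and 3 as lower, where 11.5% of all genes passed. In the hippocampus none of the 18 passed the test. The list was written with earlier results of these data known, so its count is a description.

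The proximal promoters of 3 clock genes are shown because they hold the binding motifs of that loop. They are from RefSeq (GRCm38.p6), run 5′ to 3′ on the strand of the gene, from 250 bases before the start to 50 bases after it, and mark in capitals the receptor half-site TAGGTCA (or TGACCTA, the same site on the other strand) in Arntl and Nfil3 and the E-box CACGTG in Gm129. Gm129 is the table's name for Ciart, a repressor of CLOCK and BMAL1, and was chosen after its values were seen. The windows are chr7:113207261-113207560 (plus strand) for Arntl, chr13:52980990-52981289 (minus strand) for Nfil3 and chr3:95882179-95882478 (minus strand) for Gm129.
Arntl: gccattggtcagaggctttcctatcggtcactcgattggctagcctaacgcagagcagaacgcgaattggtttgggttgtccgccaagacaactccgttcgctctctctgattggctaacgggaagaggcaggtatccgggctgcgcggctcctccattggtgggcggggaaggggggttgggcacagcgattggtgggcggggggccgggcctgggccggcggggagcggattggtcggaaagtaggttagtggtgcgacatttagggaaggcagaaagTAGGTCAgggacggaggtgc
Nfil3: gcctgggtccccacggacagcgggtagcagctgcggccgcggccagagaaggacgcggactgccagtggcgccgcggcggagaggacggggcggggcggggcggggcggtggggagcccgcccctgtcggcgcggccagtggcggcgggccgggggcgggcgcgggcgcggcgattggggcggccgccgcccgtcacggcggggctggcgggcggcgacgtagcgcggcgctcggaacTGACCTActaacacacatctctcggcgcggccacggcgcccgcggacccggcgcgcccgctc
Gm129: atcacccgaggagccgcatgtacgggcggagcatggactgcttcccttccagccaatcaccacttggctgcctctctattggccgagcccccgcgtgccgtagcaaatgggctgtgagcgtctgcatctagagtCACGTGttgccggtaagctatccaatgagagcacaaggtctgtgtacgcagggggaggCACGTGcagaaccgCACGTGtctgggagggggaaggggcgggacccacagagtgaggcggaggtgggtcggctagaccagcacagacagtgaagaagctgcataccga
Searched on both strands, TAGGTCA lay in the promoter windows of 2 of the 16 clock genes with a window (12.5%), Arntl and Nfil3, and in those of 2.97% of 27025 genes. CACGTG lay in 5 of the 16 (31.3%), Per1, Cry1, Tef, Bhlhe41 and Gm129, and in 8.09% of all genes. These are matches of letters and not measured binding.

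Arntl had 33.6, 31.4 and 34.5 TPM in NCoR1-KO, against 26.6, 23.6 and 22.5 TPM in SMRT-KO and 29.8, 26.99, 27.1 and 25.3 TPM in controls. Every NCoR1-KO library lay above every other hippocampus library, and SMRT-KO 2 and 3 lay below every control. The difference was 0.44 ± 0.083 (adjusted p = 0.617 with limma), and the amygdala had 0.42 ± 0.071 with an adjusted p of 0.008797. Nfil3, a repressor that opposes the activators TEF and DBP at shared sites, had 13.8, 17.4 and 14.6 TPM in NCoR1-KO, against 8.98, 10.96 and 7.36 TPM in SMRT-KO and 9.31, 12.7, 8.88 and 9.66 TPM in controls. Here too the 3 NCoR1-KO libraries lay above all the others, and SMRT-KO overlapped the controls. The difference was 0.70 ± 0.16, with 0.90 ± 0.18 in the amygdala, where the adjusted p was 0.0173. With weighted libraries Nfil3 passed in the hippocampus as well (adjusted p = 0.0397).

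The same order of the knockouts was seen in Nr1d1 and Tef. Nr1d1 had 109, 103 and 79.9 TPM in NCoR1-KO, against 66.7, 75.9 and 54.8 TPM in SMRT-KO and 85.3, 83.6, 73.4 and 63.2 TPM in controls, a difference between knockouts of 0.56 ± 0.16; NCoR1-KO 3 lay among the controls. In the amygdala Nr1d1 passed, with 0.52 ± 0.10 and an adjusted p of 0.0155. Tef, a leucine zipper activator, had 227, 245 and 223 TPM in NCoR1-KO, against 197, 187 and 191 TPM in SMRT-KO, a log2 difference of 0.27 ± 0.059, and the controls spanned the gap at 195.4 to 223 TPM. In the amygdala Tef differed by only 0.058 ± 0.047 (adjusted p = 0.434 with limma). In hippocampus Arntl, Nfil3, Nr1d1 and Tef all lay apart between the knockouts. Per1, a light- and hormone-responsive member of the negative limb, had 50.97, 50.03 and 55.95 TPM in NCoR1-KO, against 33.4, 40.05 and 40.6 TPM in SMRT-KO, a log2 difference of 0.45 ± 0.13. Gm129 had 24.03, 22.7 and 20.04 TPM in NCoR1-KO, against 12.4, 18.5 and 15.9 TPM in SMRT-KO, a log2 difference of 0.50 ± 0.15. Per2, another period gene, had 24.7, 25.4 and 29.9 TPM in NCoR1-KO, against 19.2, 22.4 and 18.9 TPM in SMRT-KO, a log2 difference of 0.39 ± 0.13. In these 3 as well every NCoR1-KO library lay above every SMRT-KO library.

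Other clock genes overlapped. Npas2 and Cry1 were lower in NCoR1-KO, with log2 differences of -0.080 and -0.14. Clock (0.14), Bhlhe41 (0.13), Dbp (0.13), Hlf (0.16) and Nr1d2 (0.067) were higher, all with overlap. Per3 had 28.5, 29.9 and 30.98 TPM in NCoR1-KO, against 23.2, 29.3 and 22.1 TPM in SMRT-KO, where SMRT-KO 2 reached the NCoR1-KO level. Rora, the receptor that activates Arntl at the site REV-ERBα represses, went the other way with 4.07, 5.67 and 5.64 TPM in NCoR1-KO, against 9.05, 14.7 and 4.76 TPM in SMRT-KO, a log2 difference of -0.67 ± 0.38; in the amygdala its difference of -1.62 ± 0.12 had an adjusted p of 0.000223. Per3, Rora and the other genes of this paragraph were chosen after their values were seen. The clock list leaned on SMRT-KO 3: without it 10 of 18 genes were higher and the median was 0.14, and without SMRT-KO 2 it was 0.38 with 16 of 18 higher.

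**Figure D2:**
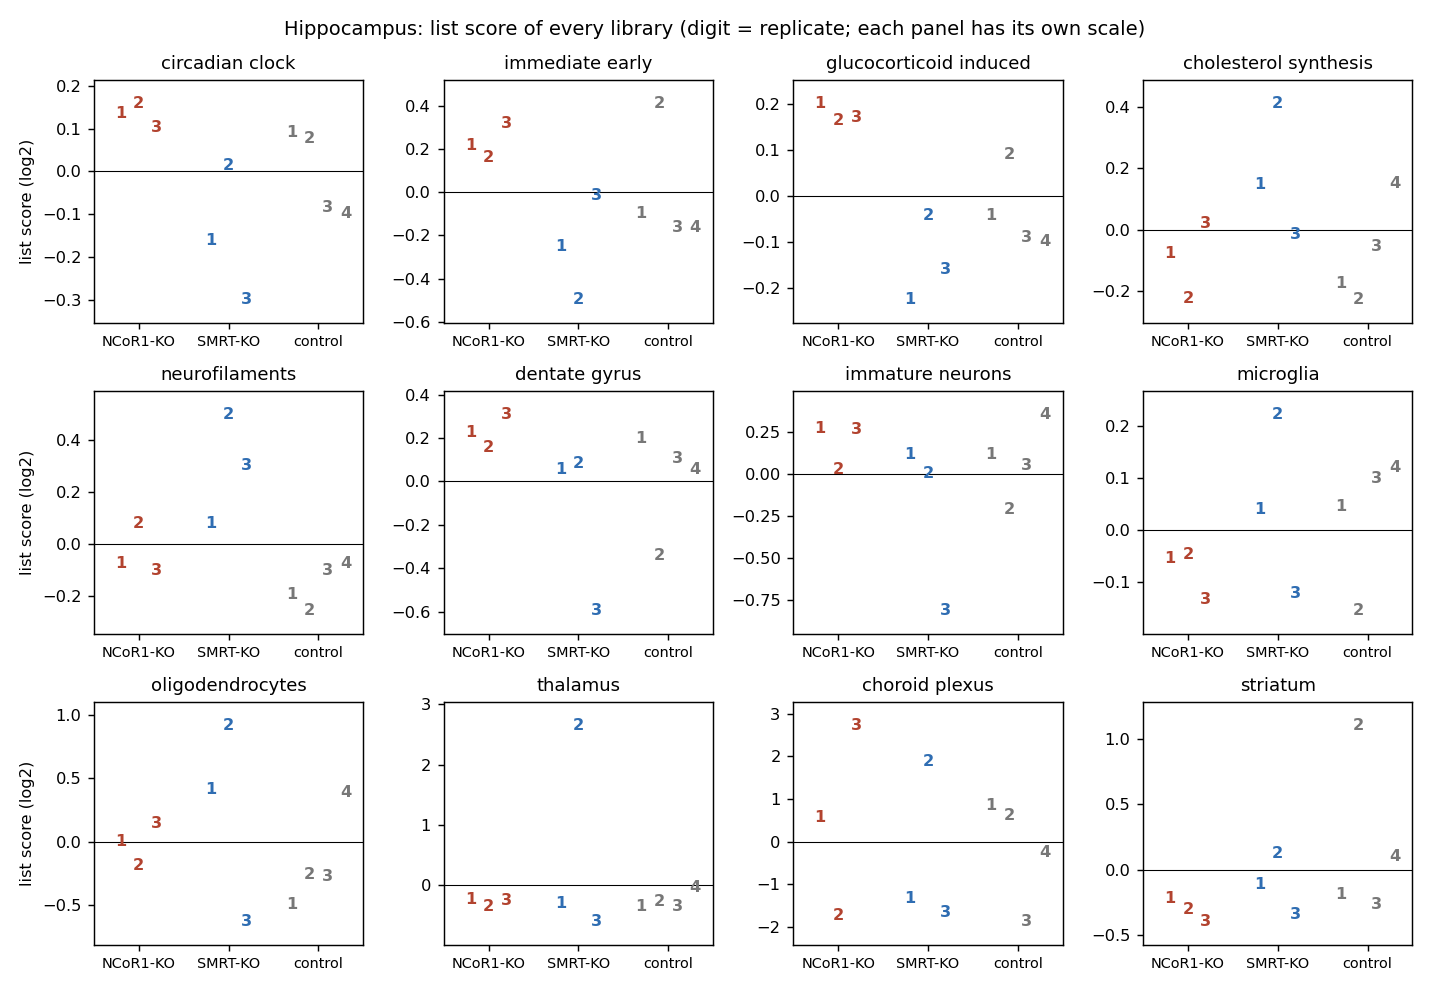
Score of each hippocampus library for 12 gene lists (the median over the list of each gene's log2 deviation from its mean over the 10 libraries), with NCoR1-KO left, SMRT-KO in the middle and controls right; digits are replicates. Clock, immediate early and glucocorticoid scores of NCoR1-KO lie above those of SMRT-KO, while SMRT-KO 2 stands alone in thalamus genes with a score of 2.65.

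Immediate early genes are switched on within minutes by neuronal firing. Of 20 tested, 19 had a higher level in NCoR1-KO and 1 a lower one (Nptx2, a secreted pentraxin, named after its value was seen), and 9 were higher with no overlap (45%, beside 6.44% of all genes). The median difference was 0.43, and 0.31 in the amygdala. There 15 of 20 were higher, but 0 passed as higher and 1 as lower, where 11.5% of all genes passed. Arc, whose product acts in the removal of AMPA receptors from synapses, had 156, 131 and 204 TPM in NCoR1-KO, against 81.4, 75.4 and 115 TPM in SMRT-KO and 76.3, 162, 77.3 and 99.4 TPM in controls. All NCoR1-KO libraries lay above all SMRT-KO libraries, and control 2 lay within the NCoR1-KO range. The difference was 0.85 ± 0.28 (adjusted p = 0.726 with limma). Fos, a subunit of the AP-1 factor, had 22.2, 20.9 and 31.8 TPM in NCoR1-KO, against 8.76, 13.9 and 12.7 TPM in SMRT-KO and 15.5, 40.2, 9.8 and 15.2 TPM in controls, a log2 difference of 1.02 ± 0.41. Here control 2 was the highest library of all.

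Among the other members, Egr2, a zinc finger activator, had 6.3, 5.89 and 8.56 TPM in NCoR1-KO, against 1.54, 1.64 and 3.29 TPM in SMRT-KO, a log2 difference of 1.35 ± 0.48. Fosb, a partner of the Jun proteins, had 5.85, 7.05 and 7.27 TPM in NCoR1-KO, against 2.19, 1.97 and 3.65 TPM in SMRT-KO, a log2 difference of 1.12 ± 0.44. Junb, one of those Jun proteins, had 74.04, 75.6 and 83.5 TPM in NCoR1-KO, against 42.5, 36.7 and 58.4 TPM in SMRT-KO, a log2 difference of 0.77 ± 0.25. In all 3 the knockouts did not overlap. Egr3 had 103, 88.8 and 90.7 TPM in NCoR1-KO, against 79.5, 56.1 and 76.6 TPM in SMRT-KO, a log2 difference of 0.42 ± 0.13, also without overlap. Nr4a2, an orphan nuclear receptor that firing induces, had 42.1, 53.4 and 45.8 TPM in NCoR1-KO, against 36.2, 23.3 and 33.5 TPM in SMRT-KO, a log2 difference of 0.60 ± 0.22, without overlap. The library scores for the list were 0.22, 0.16 and 0.32 in NCoR1-KO, -0.25, -0.50 and -0.01 in SMRT-KO and -0.10, 0.41, -0.16 and -0.16 in controls. Control 2 thus lay above every NCoR1-KO library.

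Genes induced by glucocorticoid hormone, which the adrenal gland releases in a daily rhythm and under stress, were higher in NCoR1-KO in 13 of 14 cases, with no overlap in 7 (50%, beside 6.44% of all genes). Per1 stands on both this list and the clock list, and Pdk4 on this list and that of fatty acid oxidation. The list median was 0.35, and 0.31 in the amygdala, where 3 of 14 members passed as higher, beside 735 of all 14606 genes. Ddit4, an inhibitor of the growth kinase mTORC1, had 101, 89.7 and 96.4 TPM in NCoR1-KO, against 74.4, 79.7 and 58.6 TPM in SMRT-KO, a log2 difference of 0.44 ± 0.10; in the amygdala 0.57 ± 0.13 had an adjusted p of 0.0234. Nfkbia, the inhibitor of NF-κB, had 45.97, 40.6 and 41.4 TPM in NCoR1-KO, against 34.3, 34.7 and 27.2 TPM in SMRT-KO, a log2 difference of 0.41 ± 0.12. Sgk1, a kinase that regulates ion channels, had 102, 87.1 and 132 TPM in NCoR1-KO, against 76.8, 86.3 and 85.6 TPM in SMRT-KO, a log2 difference of 0.34 ± 0.13. In each the knockouts did not overlap, by a narrow margin for Sgk1, where NCoR1-KO 2 lay just above SMRT-KO 2. Fkbp5, the cochaperone of the glucocorticoid receptor, overlapped, with 65.95, 68.5 and 56.1 TPM in NCoR1-KO, against 51.4, 43.1 and 58.8 TPM in SMRT-KO, a log2 difference of 0.31 ± 0.11. The list median lay between 0.30 and 0.47 when each knockout library was left out in turn. The sample titles give no time of collection, and its part in the clock, immediate early and glucocorticoid values was not tested.

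The cholesterol synthesis genes, which SREBP2 switches on together when sterol is short, had a lower level in NCoR1-KO in all 24 members tested of 25 listed. The libraries did not overlap in 10 (41.7%, beside 5.01% of all genes), and the median difference was -0.27. In the amygdala 3 of 25 tested were higher, with a median of -0.20. There 0 passed as higher and 1 as lower, where 11.5% of all genes passed. Sqle, the squalene epoxidase, had 94.8, 84.5 and 101 TPM in NCoR1-KO, against 115, 124 and 109 TPM in SMRT-KO and 94.5, 85.6, 97.01 and 110.05 TPM in controls. NCoR1-KO lay within or next to the control range, and 2 of the 3 SMRT-KO libraries lay above it. The difference was -0.31 ± 0.10 (adjusted p = 0.704 with limma), and -0.045 ± 0.061 in the amygdala. Dhcr7, which makes the last step to cholesterol, had 44.3, 41.7 and 45.7 TPM in NCoR1-KO, against 50.6, 57.6 and 49.6 TPM in SMRT-KO, a log2 difference of -0.25 ± 0.085. Fdft1, the squalene synthase, had 72.1, 65.3 and 75.4 TPM in NCoR1-KO, against 77.2, 86.8 and 82.8 TPM in SMRT-KO, a log2 difference of -0.21 ± 0.073. Neither gene overlapped between the knockouts.

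Earlier in the pathway, Hmgcs1, the HMG-CoA synthase, had 484, 422 and 523 TPM in NCoR1-KO, against 623, 727 and 540.3 TPM in SMRT-KO, a log2 difference of -0.40 ± 0.17, and Insig1, which holds SREBP2 back, had 64.2, 49.6 and 73.99 TPM in NCoR1-KO, against 84.4, 106 and 75.3 TPM in SMRT-KO, a log2 difference of -0.50 ± 0.19. SMRT-KO 2 was the highest of the 6 in both. Hmgcs1 and Insig1 were chosen after their values were seen. The promoter of Hmgcs1 is shown as the one of the 17 members with a window that holds the sterol element TCACNCCAC (5.88%, beside 1.44% of all genes), in capitals. It is chr13:119690101-119690400 on the plus strand of GRCm38.p6, from RefSeq.
Hmgcs1: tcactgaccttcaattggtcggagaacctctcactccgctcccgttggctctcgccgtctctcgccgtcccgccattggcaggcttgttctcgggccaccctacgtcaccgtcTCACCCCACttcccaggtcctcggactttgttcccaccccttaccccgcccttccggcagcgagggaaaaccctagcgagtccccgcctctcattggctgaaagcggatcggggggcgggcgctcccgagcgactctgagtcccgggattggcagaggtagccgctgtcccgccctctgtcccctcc
The list scores were -0.08, -0.23 and 0.02 in NCoR1-KO, 0.15, 0.41 and -0.01 in SMRT-KO and -0.23 to 0.15 in controls, so that SMRT-KO 3 lay below NCoR1-KO 3. Without SMRT-KO 2 the median was -0.13 with 22 of 24 genes lower. Myelinating oligodendrocytes are rich in these transcripts; the oligodendrocyte scores were 0.00, -0.19 and 0.14 in NCoR1-KO and 0.41, 0.91 and -0.63 in SMRT-KO, and their part in the sterol values was not tested.

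**Figure D3:**
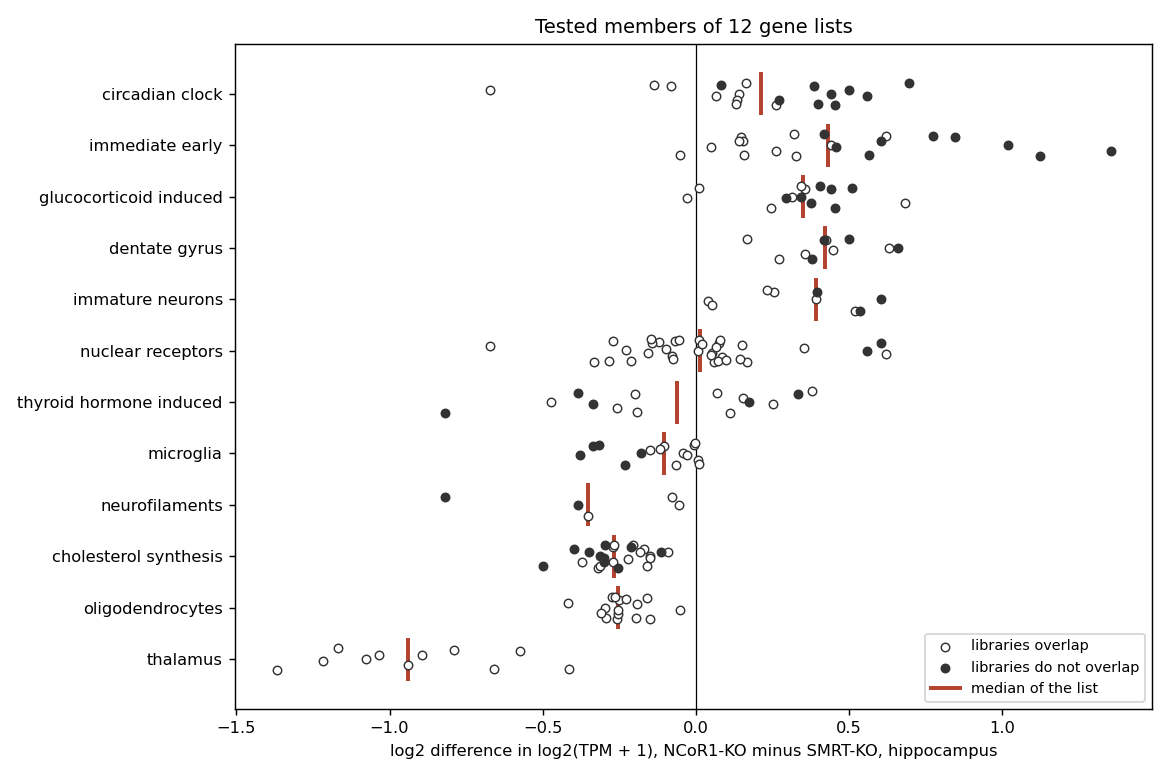
Log2 difference, NCoR1-KO minus SMRT-KO, of every tested member of 12 gene lists in hippocampus; a filled point is a gene whose 3 NCoR1-KO and 3 SMRT-KO libraries do not overlap, an open point one whose libraries do, and the red line is the list median. Cholesterol synthesis lies wholly below 0, with a median of -0.27, and immediate early genes lie above it except for 1 member.

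Outside these lists, Akr1b3, the aldose reductase of the polyol pathway, had 23.4, 21.2 and 21.9 TPM in NCoR1-KO, against 37.3, 31.8 and 50.4 TPM in SMRT-KO and 33.7, 30.3, 35.2 and 35.8 TPM in controls. The 3 NCoR1-KO libraries lay below every other hippocampus library. The difference was -0.79 ± 0.14 (adjusted p = 0.607 with limma), and -0.24 ± 0.27 in the amygdala. Bcl6, a zinc finger repressor that itself recruits NCoR1 and SMRT, had 62.03, 59.7 and 56.1 TPM in NCoR1-KO, against 49.8, 41.8 and 40.9 TPM in SMRT-KO and 45.6, 44.5, 44.7 and 44.3 TPM in controls. NCoR1-KO lay above the rest, while SMRT-KO lay around the controls, and the difference was 0.42 ± 0.076. Il1r1, the receptor for interleukin-1, had 13.6, 12.7 and 12.9 TPM in NCoR1-KO, against 5.83, 8.91 and 5.37 TPM in SMRT-KO and 9.8, 9.26, 6.82 and 8.79 TPM in controls. Its difference of 0.90 ± 0.17 set NCoR1-KO above every other hippocampus library, and the amygdala had 0.11 ± 0.13. The difference between the tissues for Il1r1 had an adjusted p of 0.172.

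B4galt4, a galactosyltransferase, had 36.05, 36.4 and 34.2 TPM in NCoR1-KO, against 22.8, 24.9 and 24.2 TPM in SMRT-KO, a log2 difference of 0.55 ± 0.10, with controls at 23.6 to 30.6 TPM. It passed in the amygdala, with 0.40 ± 0.10 and an adjusted p of 0.0273. Zfp932, a zinc finger gene, had 78.1, 77.7 and 80.5 TPM in NCoR1-KO, against 65.98, 64.7 and 61.3 TPM in SMRT-KO, a log2 difference of 0.30 ± 0.051. Pop5, a subunit of RNase P and RNase MRP, had 61.4, 63.9 and 61.5 TPM in NCoR1-KO, against 46.7, 43.9 and 52.5 TPM in SMRT-KO, a log2 difference of 0.38 ± 0.074. In all 3 the NCoR1-KO libraries lay close together and apart from SMRT-KO. Rplp0, of the ribosomal stalk, had 375, 332 and 431 TPM in NCoR1-KO, against 259.5, 268 and 229 TPM in SMRT-KO and 339, 327, 266 and 261 TPM in controls, a log2 difference of 0.58 ± 0.13. Controls 1 and 2 lay in or near the NCoR1-KO range and controls 3 and 4 near the SMRT-KO range. Ribosomal protein genes have many processed copies in the genome, so the split of reads among them is uncertain. Slc26a10, of the anion transporter family, had 8.15, 6.4 and 8.03 TPM in NCoR1-KO, against 4.21, 4.76 and 3.98 TPM in SMRT-KO, a log2 difference of 0.68 ± 0.15.

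On the lower side, Bok, a BCL2 family member and a marker of CA3 neurons, had 85.2, 71.2 and 84.7 TPM in NCoR1-KO, against 118, 121 and 138 TPM in SMRT-KO and 74.2, 73.9, 96.3 and 98.3 TPM in controls. Every SMRT-KO library lay above every other hippocampus library. The difference of -0.64 ± 0.13 did not pass (adjusted p = 0.644 with limma); the amygdala difference of -0.50 ± 0.089 did (adjusted p = 0.0108). Nefm, the medium neurofilament subunit, had 154, 157 and 152 TPM in NCoR1-KO, against 177, 231 and 201 TPM in SMRT-KO and 141, 136, 144 and 157 TPM in controls, a log2 difference of -0.39 ± 0.088. Again SMRT-KO was the group apart, and the amygdala difference of -0.69 ± 0.18 passed with an adjusted p of 0.0375. All 5 neurofilament genes were lower in NCoR1-KO, 2 without overlap (40%, beside 5.01% of all genes), with a median of -0.35 that was -0.11 without NCoR1-KO 3.

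Megf11, a cell-surface protein of retinal neuron spacing, had 3.72, 5.99 and 4.28 TPM in NCoR1-KO, against 7.71, 9.14 and 9.91 TPM in SMRT-KO, a log2 difference of -0.82 ± 0.16. Alk, a receptor tyrosine kinase, had 2.16, 2.57 and 2.6 TPM in NCoR1-KO, against 3.93, 4.52 and 4.08 TPM in SMRT-KO, a log2 difference of -0.59 ± 0.12. Bend6, a BEN-domain protein that antagonises Notch signalling, had 97.9, 108 and 94.1 TPM in NCoR1-KO, against 139, 179 and 132 TPM in SMRT-KO, a log2 difference of -0.57 ± 0.12. In none of the 3 did the knockouts overlap. Tmem11, of the inner mitochondrial membrane, had 26.4, 25.96 and 26.3 TPM in NCoR1-KO, against 34.3, 33.3 and 35.4 TPM in SMRT-KO, a log2 difference of -0.37 ± 0.074. Lyrm7, an assembly factor of respiratory complex III, had 7.54, 8.83 and 8.17 TPM in NCoR1-KO, against 13.9, 11.4 and 15.4 TPM in SMRT-KO, a log2 difference of -0.66 ± 0.15. Acyp2, an acylphosphatase, had 41.5, 41.8 and 40.6 TPM in NCoR1-KO, against 48.6, 57.3 and 54.5 TPM in SMRT-KO, a log2 difference of -0.36 ± 0.071.

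With weighted libraries 15 of the genes named by p passed: Akr1b3, Alk, B4galt4, Bend6, Ctdsp2, Ddit4, Hcrtr1, Il1r1, Lyrm7, Nfil3, Pop5, Slc26a10, Synj2, Tmem11 and Zfp932. That setting called 3 of 18 members of the clock list and 2 of 14 of the glucocorticoid list, Per1 among both. Its count over all 14501 tested genes is given with the first counts above.

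Tmem11, Lyrm7 and Acyp2 lie on chromosome 11 with Ncor1, at distances of 1.51 Mb for Tmem11, 7.54 Mb for Lyrm7 and 31.8 Mb for Acyp2. Of 248 tested genes within 10 Mb of Ncor1, without Ncor1 itself, 20 were lower (8.06%) and 12 higher (4.84%) in NCoR1-KO with no overlap. Over all 14434 placed genes 5.01% were lower and 6.46% higher. On the rest of the chromosome, 4.86% of 905 genes were lower and 7.18% higher.

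The largest differences without overlap included genes in which a single library stood out, as in Rbp4 and Snurf, and genes whose controls were spread, as in Tnni1 and Mcm6. Tnni1, the slow skeletal troponin, had 8.1, 6.21 and 3.88 TPM in NCoR1-KO, against 0.98, 1.71 and 0.8 TPM in SMRT-KO and 7.44, 5.67, 0.63 and 1.34 TPM in controls, a log2 difference of 1.68 ± 0.56; controls 1 and 2 lay in the NCoR1-KO range and controls 3 and 4 near the SMRT-KO range. Mcm6, of the replicative helicase, had 16.6, 13.7 and 17.9 TPM in NCoR1-KO, against 4.67, 9.98 and 9.77 TPM in SMRT-KO and 15.4, 13.2, 5.44 and 16.3 TPM in controls, a log2 difference of 0.95 ± 0.37, with control 3 alone among the SMRT-KO values. Ctgf, a matricellular protein and marker of cortical layer 6b, had 9.11, 9.95 and 15.8 TPM in NCoR1-KO, against 3.39, 6.19 and 6.31 TPM in SMRT-KO, a log2 difference of 1.004 ± 0.36. Rbp4, the retinol carrier, which the choroid plexus also makes, had 7.12, 9.45 and 26.9 TPM in NCoR1-KO, against 5.5, 4.21 and 4.91 TPM in SMRT-KO, a log2 difference of 1.19 ± 0.42, highest in the NCoR1-KO 3 library that was rich in choroid plexus markers. Snurf, which shares its transcript with Snrpn and is uncertain for that reason, had 55.8, 149.8 and 58.7 TPM in NCoR1-KO, against 27.1, 26.3 and 51.04 TPM in SMRT-KO.

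On the lower side, most of the largest differences were carried by SMRT-KO 2. Grid2ip, a partner of the delta-2 glutamate receptor, had 1.07, 0.9 and 0.8 TPM in NCoR1-KO, against 1.58, 29.01 and 1.17 TPM in SMRT-KO, a log2 difference of -1.52 ± 0.87. Cbln1, a synaptic organiser that binds the same receptor, had 2.78, 2.8 and 2.66 TPM in NCoR1-KO, against 3.5, 34.5 and 2.97 TPM in SMRT-KO, a log2 difference of -1.20 ± 0.68. Rab37, a secretory GTPase, had 1.89, 1.74 and 1.86 TPM in NCoR1-KO, against 2.02, 30.1 and 3.92 TPM in SMRT-KO, a log2 difference of -1.45 ± 0.67. In these genes SMRT-KO 2 was several times above the other 5 knockout libraries. Tcf7l2, a thalamus marker, had 10.9, 10.01 and 10.1 TPM in NCoR1-KO, against 10.7, 124 and 8.33 TPM in SMRT-KO, the same library again. Slitrk6, Prkg2, Fzd10 and Cox6a2 were also highest in SMRT-KO 2. The part of thalamus tissue in these values was not tested.

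Targets of the thyroid hormone, retinoic acid and liver X receptors were split in direction. Of 14 genes induced by thyroid hormone, 7 were higher and 7 lower in NCoR1-KO, 2 higher (14.3%, beside 6.44% of all genes) and 3 lower (21.4%, beside 5.01%) without overlap, with a median of -0.062 beside -0.66 in the amygdala. Klf9, a direct target of the thyroid hormone receptor, had 224, 208 and 218 TPM in NCoR1-KO, against 191, 189 and 195.2 TPM in SMRT-KO and 189, 182, 199.9 and 200.1 TPM in controls, a log2 difference of 0.17 ± 0.053. NCoR1-KO lay above the rest, by little. Hr, the corepressor hairless and another direct target, overlapped with 12.6, 11.2 and 14.5 TPM in NCoR1-KO, against 17.3, 31.1 and 10.7 TPM in SMRT-KO, a log2 difference of -0.47 ± 0.30. Pvalb, the calcium buffer of fast-spiking interneurons, had 62.4, 59.4 and 50.4 TPM in NCoR1-KO, against 65.2, 67.7 and 85.8 TPM in SMRT-KO, a log2 difference of -0.33 ± 0.13, beside -1.63 ± 0.33 in the amygdala with an adjusted p of 0.0179. The receptors themselves, Thra and Thrb, differed by 0.0072 ± 0.14 and 0.075 ± 0.11.

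Of 11 retinoic acid genes 6 were higher and 5 lower, and 0 lay apart without overlap. Of 10 LXR and sterol efflux genes 5 were higher and 5 lower. Abcg1, a sterol exporter, was the only gene without overlap (10%, beside 6.44% of all genes). It had 36.8, 39.6 and 36.8 TPM in NCoR1-KO, against 33.02, 34.7 and 30.9 TPM in SMRT-KO, a log2 difference of 0.19 ± 0.078. Of 19 genes of PPAR and fatty acid oxidation 15 were higher, with a median of 0.091, and 1 lay apart (5.26%, beside 6.44% of all genes); without SMRT-KO 1 the median was -0.0067 with 9 of 19 higher. The gene apart was Pdk4, which restrains pyruvate oxidation, with 8.1, 8.1 and 9.03 TPM in NCoR1-KO, against 5.58, 7.36 and 5.9 TPM in SMRT-KO, a log2 difference of 0.38 ± 0.12. Of the 34 nuclear receptors tested, 19 were higher and 15 lower, with a median of 0.015, close to that of all genes, and Nr1d1 and Nr4a2 were the 2 without overlap (5.88%, near the 6.44% of all genes).

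Among the partners of the corepressors, Hdac3, the deacetylase of the complex, had 114, 119 and 106 TPM in NCoR1-KO, against 116, 109.5 and 119 TPM in SMRT-KO, a log2 difference of -0.017 ± 0.065. Gps2, a small subunit that binds both corepressors, had 25.03, 27.6 and 23.3 TPM in NCoR1-KO, against 20.3, 25.1 and 20.9 TPM in SMRT-KO, a log2 difference of 0.19 ± 0.10; both overlapped. Coro2a, a coronin found with the complex, lay apart, with 17.2, 21.3 and 17 TPM in NCoR1-KO, against 21.6, 25.6 and 25.5 TPM in SMRT-KO and 23.7, 23.4, 24.2 and 19.4 TPM in controls, a log2 difference of -0.38 ± 0.12. Ncor1, the deleted gene itself, and Coro2a were the 2 of 7 complex genes with no overlap (28.6%, beside 5.01% of all genes).

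Lists of neuronal function had medians near 0 with all libraries weighted alike, and some moved with single libraries or with library weights. Synaptic vesicle genes were higher in 6 and lower in 13 of 19, with a median of -0.027 and 0 without overlap. Without SMRT-KO 2 the median was -0.17 with 0 of 19 higher, and without SMRT-KO 3 it was 0.10 with 16 of 19 higher. Glutamate receptor genes were higher in 11 and lower in 11, with a median of -0.033. With weighted libraries 18 of 22 were lower, with a median of -0.13. Grin1, the obligatory NMDA receptor subunit, had 483, 460.0 and 457 TPM in NCoR1-KO, against 437, 370.1 and 442 TPM in SMRT-KO, a log2 difference of 0.17 ± 0.072, and Gria4, an AMPA receptor subunit of interneurons among other cells, had 42.1, 53.4 and 45.9 TPM in NCoR1-KO, against 55.6, 66.4 and 59.4 TPM in SMRT-KO, a log2 difference of -0.36 ± 0.11. The groups stood apart in both, by a small margin in Grin1. GABA genes were higher in 7 and lower in 11 of 18, with a median of -0.071. Potassium channel genes were higher in 11 and lower in 11, with 5 lower and 1 higher without overlap (22.7% and 4.55%, beside 5.01% and 6.44% of all genes) and a median of 0.018, among them Kcna1, the low-threshold axonal channel, at -0.14 ± 0.089 with 97, 103 and 107 TPM in NCoR1-KO, against 117, 109 and 112 TPM in SMRT-KO. Oxidative phosphorylation genes were higher in 8 and lower in 16, with a median of -0.012. With weighted libraries 16 of 18 GABA genes (median -0.070) and 17 of 22 potassium channel genes (-0.14) were lower. Under those weights 20 of 24 oxidative phosphorylation genes were higher (0.042).

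Dentate gyrus markers were higher in NCoR1-KO in 10 of 10 cases, 4 without overlap (40%, beside 6.44% of all genes), with a median of 0.42. C1ql2 differed by 0.66 ± 0.23, with controls at 31.2 to 57.5 TPM. C1ql3, its paralog and like it a ligand at mossy fibre synapses, had 187, 169 and 171 TPM in NCoR1-KO, against 150.5, 141 and 106 TPM in SMRT-KO, a log2 difference of 0.42 ± 0.14. Calb1, the calcium buffer of mature granule cells, had 98.9, 116 and 93.04 TPM in NCoR1-KO, against 88.3, 74.3 and 73.3 TPM in SMRT-KO, a log2 difference of 0.38 ± 0.12. Prox1, the factor that specifies granule cells, overlapped, with 64.5, 74 and 75.3 TPM in NCoR1-KO, against 71.2, 66.9 and 19.6 TPM in SMRT-KO, where SMRT-KO 3 alone was low. Immature neuron markers were higher in 9 of 9, 3 without overlap (33.3%, beside 6.44%). Sox11, a factor of newborn neurons, had 30.5, 28.4 and 32.1 TPM in NCoR1-KO, against 25.9, 24.01 and 11.96 TPM in SMRT-KO, a log2 difference of 0.61 ± 0.22. Without SMRT-KO 3 the dentate median was 0.19 with 9 of 10 higher, and that of immature neurons was 0.14 with 5 of 9 higher. The dentate scores were 0.16 to 0.31 in NCoR1-KO, against 0.06, 0.08 and -0.59 in SMRT-KO.

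Microglia are not neurons, the cells that the driver targets. Of 15 microglia markers 13 were lower and 2 higher in NCoR1-KO, 5 lower without overlap (33.3%, beside 5.01% of all genes), with a median of -0.10. In the amygdala the median was -0.36 and 9 of 15 passed as lower, where 11.5% of all genes passed in either direction. P2ry12, the purinergic receptor of resting microglia, had 61.3, 55.4 and 52.7 TPM in NCoR1-KO, against 72.2, 70.1 and 71.97 TPM in SMRT-KO and 66.2, 54.4, 70.04 and 71.8 TPM in controls, a log2 difference of -0.34 ± 0.10. SMRT-KO lay above NCoR1-KO, with the highest control inside its range and the next control just below it. Itgam, the integrin CD11b, had 12.97, 12.8 and 11.3 TPM in NCoR1-KO, against 16.1, 16.4 and 14.2 TPM in SMRT-KO, a log2 difference of -0.31 ± 0.10. P2ry13, a related purinergic receptor, had 14.5, 12.6 and 11.9 TPM in NCoR1-KO, against 17.6, 17.8 and 16.1 TPM in SMRT-KO, a log2 difference of -0.38 ± 0.16. Without SMRT-KO 2, 9 of 15 markers were lower and the median was -0.053. Oligodendrocyte markers were lower in 16 of 16, with a median of -0.25 and 0 without overlap, and without SMRT-KO 2 they were higher in 15 of 16, with a median of 0.098. Without SMRT-KO 3 they were lower in 16 of 16, with a median of -0.68. In the amygdala 0 of 16 were higher, with a median of -1.06, and 3 passed as lower, where 11.5% of all genes passed in either direction. Choroid plexus markers were higher in 14 of 14 with 0 without overlap, lower in 12 of 14 (median -0.16) without NCoR1-KO 3, and followed NCoR1-KO 3 and SMRT-KO 2: Ttr, the thyroxine carrier made there, had 2083, 48.05 and 11183 TPM in NCoR1-KO, against 36.3, 5583 and 64.2 TPM in SMRT-KO. Astrocyte and endothelial medians were -0.036 and -0.037.

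Other lists gave the following counts. CA field markers were higher in 5 and lower in 6 of 11 (median -0.019), and interneuron markers higher in 6 and lower in 7 of 13 (-0.040). Neuropeptide genes were higher in 11 of 17 (0.15), heat shock genes in 13 of 16 (0.022), and interferon and antigen presentation genes in 15 of 19 (0.17), the first and last of these with 0 apart. Cortex layer markers were higher in 9 of 13 (0.17), 3 without overlap (23.1%, beside 6.44% of all genes). Striatum markers were higher in 5 of 10 (-0.019), with 3 lower without overlap (30%, beside 5.01%); Drd2, the dopamine D2 receptor, had 1.63, 2.13 and 2.01 TPM in NCoR1-KO, against 2.24, 6.08 and 2.59 TPM in SMRT-KO. Thalamus markers were lower in 11 of 11 (-0.94) and the 3 tested hypothalamus markers in 3 of 3, all with overlap; without SMRT-KO 2 the thalamus median was 0.13 with 7 of 11 higher, and that of the hypothalamus 0.097 with 2 of 3 higher. Ependymal markers were higher in 6 of 7 (0.42), but lower in 6 of 7 (-0.44) without SMRT-KO 3 and in 4 of 7 (-0.15) with weighted libraries. Markers of mural cells and fibroblasts were higher in 11 of 14 (0.30) and in 8 of 14 (0.047) without SMRT-KO 3, and blood genes in 4 of 5 (0.16). Oligodendrocyte precursor markers were lower in 8 of 8 (-0.15) with overlap in each, and higher in 5 of 8 (0.041) without SMRT-KO 2. Neuropeptide genes were lower in 10 of 17 (-0.039) without SMRT-KO 2.

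Several genes separated the controls as sharply as the knockouts, and were chosen after their values were seen. The gene listed as 2610507I01Rik, at chr11:59197793-59202431, had 0.98, 0.97 and 1.17 TPM in NCoR1-KO, against 18.8, 18.4 and 18.6 TPM in SMRT-KO and 1.19, 1.07, 19.3 and 19.4 TPM in controls, a log2 difference of -3.27 ± 0.85. Controls 1 and 2 lay at the NCoR1-KO level and controls 3 and 4 at the SMRT-KO level. Mrpl55, a mitochondrial ribosomal protein gene beside it at chr11:59202486-59206138, had 21.2, 24.1 and 23.7 TPM in NCoR1-KO, against 46.95, 43.5 and 50.3 TPM in SMRT-KO and 24.9, 22.1, 44.4 and 46.9 TPM in controls, a log2 difference of -0.998 ± 0.26. They lie 3.19 and 3.18 Mb from Ncor1. AA465934, at chr11:83291699-83294637, had 66.2, 64.7 and 64.4 TPM in NCoR1-KO, against 1.86, 1.94 and 5.37 TPM in SMRT-KO and 139.99, 59.5, 3.16 and 7.46 TPM in controls, a log2 difference of 4.13 ± 1.10. Gm1821, on chromosome 14 at chr14:46084027-46084957, had 319, 334 and 308 TPM in NCoR1-KO, against 88.01, 94.3 and 100.2 TPM in SMRT-KO and 323, 330.3, 87.8 and 104 TPM in controls, a log2 difference of 1.76 ± 0.46. The same controls fell on the same sides in all 4 genes.

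The amygdala held the same pattern in all 4. There 2610507I01Rik had 0.95, 1.58 and 0.97 TPM in NCoR1-KO, against 16.4, 17.6 and 18.3 TPM in SMRT-KO and 1.32, 1.29, 16.5 and 18.5 TPM in controls, and -3.10 ± 0.76 had an adjusted p of 0.0299. These 4 genes and 8430408G22Rik were the 5 called when the hippocampus controls were left out of the fit. 8430408G22Rik, on chromosome 6 at chr6:116650684-116652847, had the smallest p of all, with 7.45, 7.93 and 7.6 TPM in NCoR1-KO, against 0.72, 0.81 and 0.68 TPM in SMRT-KO and 1.99, 4.32, 1.3 and 0.81 TPM in controls, a log2 difference of 2.32 ± 0.32 (adjusted p = 0.4203 with limma). Every NCoR1-KO library lay above every control and every SMRT-KO library at or below the lowest control, and the amygdala difference of 1.93 ± 0.30 had an adjusted p of 0.00662. Without control 2, the highest of the controls, it passed in the hippocampus too. The labels name no litter, line or background for the controls. The knockouts came from crosses with different floxed alleles. Genotype and cross therefore cannot be told apart in these genes or in the other differences between the knockouts.

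**Figure D4:**
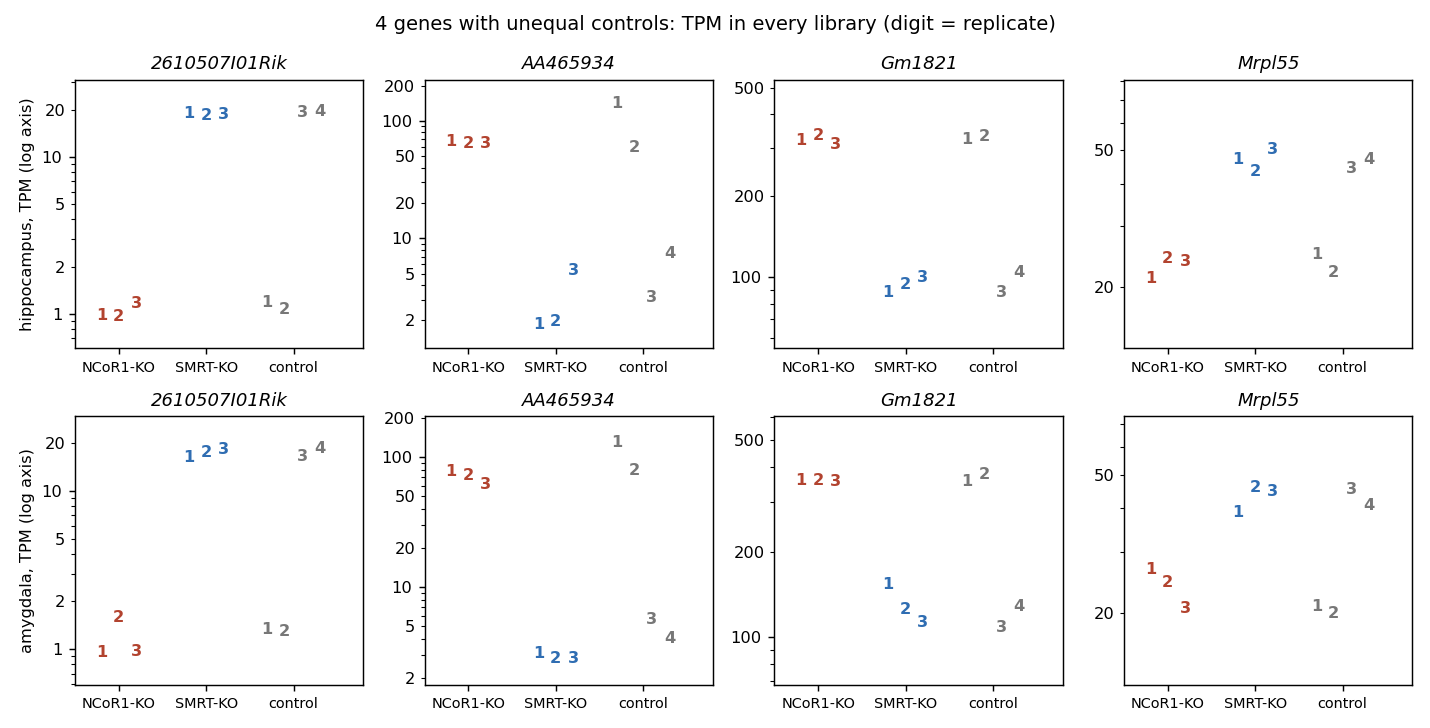
TPM on a log axis of 2610507I01Rik, AA465934, Gm1821 and Mrpl55 in every hippocampus library (top) and amygdala library (bottom), with NCoR1-KO left, SMRT-KO in the middle and controls right; digits are replicates. In both tissues controls 1 and 2 lie on the NCoR1-KO side and controls 3 and 4 on the SMRT-KO side; in AA465934 hippocampus control 1, at 139.99 TPM, and control 4, at 7.46 TPM, lie above the knockouts of their side.

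The knockout contrast was set against that of the amygdala in a fit of all 20 libraries, which asks where the tissues differ. Of 14210 genes tested in both, 3 passed (0.0211%): Grm3, Kctd16 and Hcrtr1. Hcrtr1, the orexin receptor 1, had 2.07, 2.56 and 2.08 TPM in NCoR1-KO, against 4.28, 3.39 and 4.37 TPM in SMRT-KO hippocampus, and 5.8, 8.04 and 5.52 TPM in NCoR1-KO, against 4.4, 3.84 and 3.26 TPM in SMRT-KO amygdala. NCoR1-KO was the lower knockout in hippocampus and the higher one in amygdala, with no overlap in either, and the tissue difference, hippocampus minus amygdala, was -1.24 ± 0.20 (adjusted p = 0.033 with limma). Grm3, a metabotropic glutamate receptor that inhibits adenylyl cyclase, had 22.8, 26.4 and 21.4 TPM in NCoR1-KO, against 24.2, 22.3 and 22.4 TPM in SMRT-KO hippocampus, and 29.8, 28.01 and 31.6 TPM in NCoR1-KO, against 64.3, 88.7 and 78.8 TPM in SMRT-KO amygdala. The hippocampus knockouts overlapped and the amygdala knockouts stood far apart, a tissue difference of 1.37 ± 0.20 (adjusted p = 0.033). Kctd16, an auxiliary subunit of GABA-B receptors, had 13.3, 12.7 and 14.1 TPM in NCoR1-KO, against 15.4, 11.7 and 12.6 TPM in SMRT-KO hippocampus, and 14.1, 16.1 and 17.6 TPM in NCoR1-KO, against 39.9, 40.7 and 46.7 TPM in SMRT-KO amygdala, a tissue difference of 1.38 ± 0.21 (adjusted p = 0.033). The count was 0 when any hippocampus knockout library but SMRT-KO 1 was left out, and 489 without SMRT-KO 1. It was 0 also without amygdala NCoR1-KO 1 or 2 or SMRT-KO 2 or 3, and 38 without amygdala SMRT-KO 1. With a block for each genotype and number shared by the tissues, an alternative chosen after the data were seen, it was 0, with adjusted p of 0.11 for Hcrtr1 and Grm3 and 0.144 for Kctd16.

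Dio2, the deiodinase that activates thyroid hormone in astrocytes, came next in that order and did not pass. It had 48.5, 58.4 and 46.7 TPM in NCoR1-KO, against 45.8, 42.6 and 37.4 TPM in SMRT-KO hippocampus, and 51.5, 47.1 and 53.3 TPM in NCoR1-KO, against 70.1, 97.5 and 78.01 TPM in SMRT-KO amygdala, a tissue difference of 0.95 ± 0.17 (adjusted p = 0.0738). Fst, the activin antagonist follistatin, had a tissue difference of 1.11 ± 0.20 (adjusted p = 0.0738).

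Of the 24 named genes of smallest p in the hippocampus, 21 had the same direction in the amygdala. There 8 were called, where 11.5% of all genes were, 7 in the same direction and Hcrtr1 in the opposite one. Ncor1, the deleted gene, is among the 7. Read the other way, 727 of the genes called higher in NCoR1-KO amygdala were tested in hippocampus. Of these, 485 were also higher in hippocampus, beside 8076 of all 14501 genes (55.7%). Without overlap 115 were higher (15.8%, beside 6.44% of all genes). The 727 genes had a median difference of 0.047 in hippocampus and 0.31 in amygdala. Of 928 genes called lower in the amygdala, 449 were also lower in hippocampus, beside 6425 of all 14501 genes. Without overlap 54 were lower (5.82%, beside 5.01%). The medians of the 928 genes were 0.0047 in hippocampus and -0.50 in amygdala. The 2 contrasts share no library, though the tissues may come from the same animals.

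**Figure D5:**
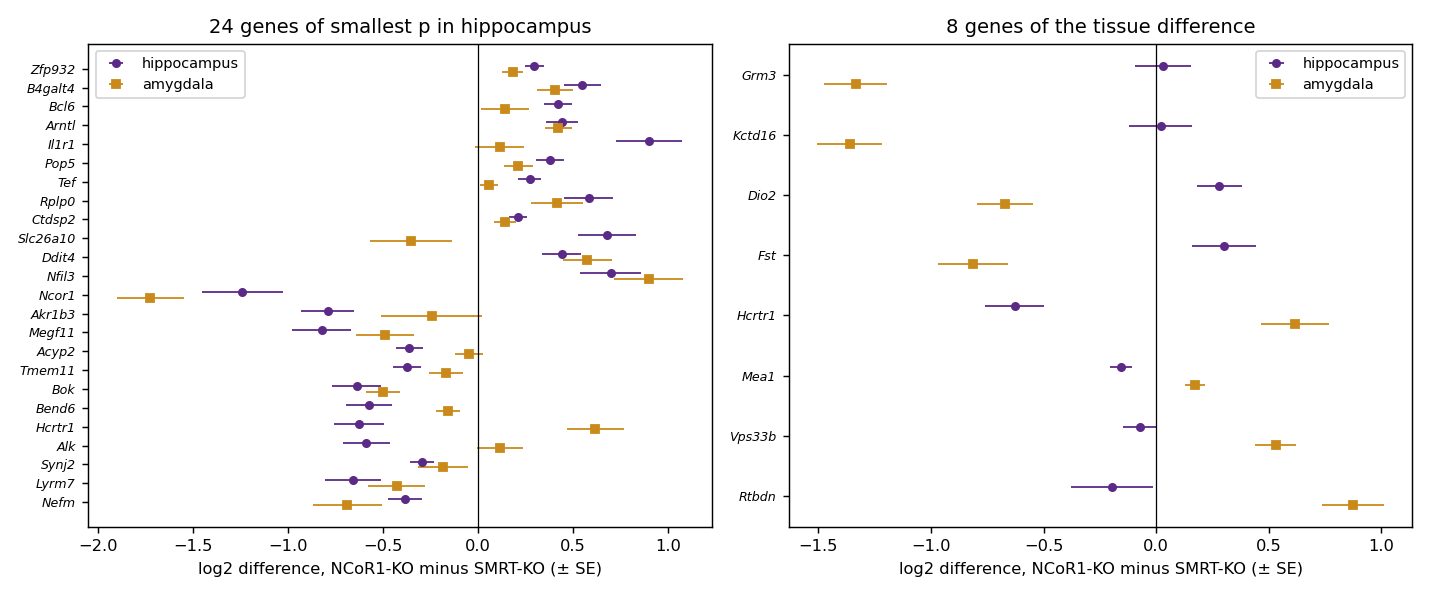
Log2 difference, NCoR1-KO minus SMRT-KO (horizontal axis), with the standard error of the model as bars, in hippocampus (circles) and amygdala (squares), for the 24 named genes of smallest p in hippocampus (left) and the 8 of smallest p for the difference between tissues (right). Arntl, Nfil3 and B4galt4 lie above 0 in both, Ncor1 and Bok below 0 in both, and Hcrtr1 is below 0 in hippocampus and above it in amygdala.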

How the data were processed

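Per the labels' protocols, the RNA kit was RNeasy for lipid tissue and the library kit was TruSeq stranded mRNA. Gene-level TPM values were made by the authors and deposited as 1 table per tissue. Per the submitters' processing notes, the build is mm10 and the tools include RSEM 1.3.3, STAR 2.5.3a, fastp 0.21.0 and bcl2fastq; their roles and the gene annotation are not given in the sources used here. TPM keeps no depth, so no counting error can be attached. Every column was matched to its label, and there were 0 columns of other samples.

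Values were taken as log2(TPM + 1), with a filter of 1 TPM in at least 3 of 10 libraries. limma 3.58.1 (R 4.3.3) fitted the 3 genotypes over the 10 hippocampus libraries, with moderated variances and a variance trend, and p-values were adjusted by Benjamini-Hochberg at 0.05 over all tested genes. A joint fit of 20 libraries, taken as unpaired, tested the difference between tissues. Single genes were compared by an exact permutation test. Python 3.11.15, numpy 2.4.6, pandas 2.3.3 and scipy 1.17.1 were used beside these. The fits were tested on simulated data.

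The text names Ncor1 and Snap25, per direction the 12 genes of smallest p and the 8 largest differences without overlap at a mean of 5 TPM or more in a knockout, from each of 36 lists (504 symbols) the first 2 members and the 3 of smallest p, and the 4 genes per direction of smallest p for the tissue difference. Sex-linked and predicted genes are counted without a name, apart from those said to be chosen after their values were seen. Members and lists were chosen with earlier results of these data known. The level of the gene targeted in SMRT-KO is not reported here, so the SMRT-KO libraries are called by a label that no value in the text checks. RefSeq (GRCm38.p6) matched 21560 symbols and 1688 older symbols, and 164 had no match. Alternatives were pseudocounts of 0.1 and 5, other filters, quantile normalization, no variance trend, library weights, the replicate number as a block, the knockout libraries alone and leaving out libraries.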

Additional observations from a re-analysis of the deposited data

Results flagged for a closer look

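Hcrtr1, Grm3 and Kctd16 stand out because the knockout contrast differed between the tissues in a joint limma fit, by -1.24 for Hcrtr1, 1.37 for Grm3 and 1.38 for Kctd16 (hippocampus minus amygdala, log2, adjusted p = 0.033 each). All 3 calls were lost with quantile normalization, with the replicate number as a block (adjusted p of 0.0678 to 0.0844), with a block per genotype and number, and without any single hippocampus knockout library other than SMRT-KO 1. Hcrtr1 was lower in NCoR1-KO than in SMRT-KO in hippocampus and higher in amygdala, with no overlap of the 3 and 3 libraries in either.

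Among 38 groups of list scores, a single library lay far from the rest of its group in 2, where chance gives about 1 in 20 groups. A count of 2 in 38 is close to that rate. The 38 groups are fewer than 36 lists in 3 genotypes would give, so not every group was tested. The absence of a flag therefore clears no knockout library. SMRT-KO 2, not flagged, scored 2.65 for thalamus genes beside -0.31 and -0.60 in SMRT-KO 1 and 3. Control 1 had a score of 0.096 for LXR and sterol efflux genes, and control 2 had a score of 0.41 for immediate early genes. Neither library enters the difference between the knockouts, only the estimate of its spread.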

How the results depend on the processing

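The count of hippocampus genes passing was 0, and became 47 with library weights, 5 with only the knockout libraries, and 0 to 1 when 1 library was left out, the 1 without control 2. Ncor1 kept its direction in all 20 alternatives and passed with library weights, at -1.56. The tissue difference, 3 genes, gave 6 with a pseudocount of 5, 7 without a filter, 0 with quantile normalization, 1045 with library weights, 0 without both NCoR1-KO 3 and SMRT-KO 2, and 0 to 489 when 1 library was left out, the 489 without hippocampus SMRT-KO 1; the cause was not tested. Snap25, at -0.034, turned to 0.0079 with quantile normalization and 0.035 with library weights, and ranged between -0.17 and 0.15 with 1 library left out, positive without SMRT-KO 3. Snap25 and the genes named for their p or size, 39 without Ncor1, gave 770 values: 15 newly passed, all with library weights, and 3 changed sign, all of Snap25. Without 1 knockout library, 1364 to 2214 genes were higher and 1000 to 2154 lower without overlap, beside 934 and 726, since fewer libraries separate more often; without both libraries named, 3028 and 1968. At an unadjusted p under 0.05, library weights gave 1221 and 1568, beside 554 and 402. Of 720 list medians, 63 changed sign, over 23 lists.

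With the replicate block, 0 hippocampus genes and 0 tissue differences passed. Same-numbered NCoR1-KO and SMRT-KO libraries had deviations correlated at -0.13, -0.49 and -0.42, so the numbers do not pair the knockouts. Across tissues, same-numbered libraries of 1 genotype correlated at 0.48, 0.13 and 0.28 in NCoR1-KO, 0.16, 0.10 and 0.00081 in SMRT-KO and 0.32, 0.30, 0.048 and 0.12 in controls, over 0.1 in 8 of 10, so a pairing of the tissues is hinted at but not established. With the replicate block within genotype, chosen after seeing the data, 0 tissue differences passed, beside 3. TPM gives no depth, so low values cannot be given a counting error. With 3 libraries a group, a difference that did not pass is not shown to be absent.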
